A study of Mus musculus with 28 samples.

Results

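Gut epithelium signals to immune cells through secreted and surface proteins, and the transcripts of 10 of these are described here: Ido1, Cd274, Tnfsf10, Il18, Il1rn, Pigr, Ccl20, Ccl25, Cxcl16 and Lgals9. They were taken by gene name, and all 10 of 10 were found among 29413 genes of the table of BMP-treated organoids and among 55416 genes of the table of Tgfb-treated organoids. The cultures were small-intestinal organoids, which are crypt-derived epithelial structures grown in a gel matrix, here from mice of the genotype WT (C57BL/6). Crypts were first grown in a medium holding no Bmp or Tgfb, and a recombinant ligand was then added at 500 ng/ml for 24 h, while control organoids received none. The BMP experiment held 4 control samples, 4 samples with Bmp2 and 3 samples each with Bmp3, Bmp4, Bmp5 or Bmp7, and the Tgfb experiment held 3 control samples and 3 samples with Tgfb. The series title places these ligands in the terminal differentiation of enterocytes at the villus tip. No transgene or deletion is named for any of these groups, and no source says whether replicates came from separate animals. The p-values therefore measure only the spread between these samples, which may be technical.

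Intestinal epithelial cells carry antibody into the gut lumen, recruit lymphocytes with chemokines, and release or present factors that activate, restrain or kill immune and neighbouring cells. Bmp and Tgfb ligands are made mainly by the mesenchyme under the epithelium, act through receptor kinases and Smad proteins, and form gradients along the axis from crypt to villus. Chemokines such as Ccl25 and Ccl20 are classic examples of epithelial products whose level depends on the position and state of the cell.

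Values of the BMP experiment are normalized counts, which are read counts divided by a size factor per sample. A sample held 21356682 to 24788661 recovered reads, and 1 read was worth 0.826 to 1.28 normalized counts. Values of the Tgfb experiment are TPM, a transcript abundance scaled by length and library total, whose depth is unknown and whose levels cannot be set against the normalized counts. Id1, a direct Smad target, was higher than in control organoids on the log2 scale by 4.41 in the BMP2 samples, 4.30 under BMP4, 3.80 under BMP7, 2.65 under BMP5 and 2.75 in the Tgfb experiment. The label of epithelial cells was checked on markers: all 9 epithelial markers exceeded a mean of 10 normalized counts in every group, and their summed level was 125690 to 141940 in control samples and 684054 to 874594 with BMP2. The 13 leukocyte markers summed to 100 to 128 normalized counts in control samples, and the pan-leukocyte marker Ptprc stood at 6.71 ± 3.04 normalized counts (SD, n = 4). The 8 mesenchymal markers found in the table summed to 13.2 to 49.7 normalized counts in control samples. Of the 10 markers on that list, 4 were either at 0 there or not found. The 5 endothelial markers were not as low, with sums of 571 to 780 normalized counts in control samples. Most of that was Pecam1, at a mean of 672, and 2 of the 5 were at 0 there.

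Within the untreated organoids of the Tgfb experiment, where TPM allows genes to be compared per length, the members differed widely. Pigr was highest at 716 ± 16.6 TPM, followed by Lgals9 at 370 ± 33.3 TPM and Ccl25 at 317 ± 19.2 TPM (SD, n = 3 each). Il18 stood at 42.8 ± 8.12 TPM, Il1rn at 8.27 ± 0.893 TPM, Tnfsf10 at 7.67 ± 0.721 TPM, Ccl20 at 5.76 ± 0.202 TPM and Cxcl16 at 5.10 ± 1.00 TPM. The ranges of Il1rn and Tnfsf10 overlapped, as did those of Ccl20 and Cxcl16. Cd274 at 0.315 ± 0.0551 TPM and Ido1 at 0.119 ± 0.122 TPM were the lowest members, and their ranges also overlapped. Ido1 missed the filter on low values in both experiments and Cd274 missed it in the Tgfb experiment, which left 9 members tested for the BMP ligands and 8 for Tgfb.

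BMP2 raised 4 and lowered 5 of the 9 tested members, while 36.8% of all 14746 genes tested were higher and 38.4% were lower. BMP4 raised 5 and lowered 1, against 33.7% and 31.4% of all genes. BMP5 raised 3 and lowered 3, against 16.5% and 9.87% of all genes, and BMP7 raised 3 and lowered 3, against 19.2% and 13.2%. Tgfb raised 2 and lowered 4 of the 8 tested members, against 27.4% and 29.3% of 12959 genes. With shares this high, a count of changed members is not by itself a result about them, and what follows is their size, direction and spread. The median log2 difference of the tested members was 0.91 for BMP4, 0.01 for BMP5, -0.30 for BMP7, -0.34 for Tgfb and -0.64 for BMP2, where the median of all genes lay between -0.05 and 0.04.

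Promoter windows were available for 8 of the 10 members, from 250 bases before to 50 bases after the annotated start, in RefSeq on GRCm38.p6. Some genes have several starts, which gave 11 windows. The palindromic Smad motif GTCTAGAC was in none of the 11 and in 0.213% of all 32851 windows. The GC-rich Smad motif GGCGCC was in 1 of the 11, a window of Ccl25, and in 11.9% of all windows. The interferon motif GAAANNGAA was in the windows of Cd274 and Lgals9 and in 8.56% of all, and the NF-kB motif was in that of Ccl20 and in 8.46% of all. Both strands were searched with no mismatch, and a match describes the letters only. The 250 bases before the start are shown for Pigr, which fell most, and for the 3 members with a match in that stretch, in lower case with the matched motif in capitals. The matches begin 76 bases before the start in Cd274, 54 in Lgals9 and 80 in Ccl20. Each sequence runs in the direction of its gene.
Pigr, chr1:130826434-130826683, plus strand: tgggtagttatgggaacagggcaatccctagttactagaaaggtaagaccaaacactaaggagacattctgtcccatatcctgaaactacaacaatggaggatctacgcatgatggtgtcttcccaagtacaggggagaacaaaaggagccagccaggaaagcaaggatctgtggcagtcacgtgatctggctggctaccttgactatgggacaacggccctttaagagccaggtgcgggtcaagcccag
Cd274, chr19:29367188-29367437, plus strand: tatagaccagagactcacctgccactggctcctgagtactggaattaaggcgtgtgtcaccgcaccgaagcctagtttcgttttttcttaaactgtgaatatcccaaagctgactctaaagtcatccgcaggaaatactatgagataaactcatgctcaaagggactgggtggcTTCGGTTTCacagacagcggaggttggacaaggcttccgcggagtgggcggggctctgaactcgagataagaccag
Lgals9, chr11:78984925-78985174, minus strand: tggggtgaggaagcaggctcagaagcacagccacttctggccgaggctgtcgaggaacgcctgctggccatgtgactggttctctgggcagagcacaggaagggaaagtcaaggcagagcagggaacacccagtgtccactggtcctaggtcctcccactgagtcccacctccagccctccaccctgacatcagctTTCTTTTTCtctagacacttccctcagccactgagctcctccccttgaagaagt
Ccl20, chr1:83116516-83116765, plus strand: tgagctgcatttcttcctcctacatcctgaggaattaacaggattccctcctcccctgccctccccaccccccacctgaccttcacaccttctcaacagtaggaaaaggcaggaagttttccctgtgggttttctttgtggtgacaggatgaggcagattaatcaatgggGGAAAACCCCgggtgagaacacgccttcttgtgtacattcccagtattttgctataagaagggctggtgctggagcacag

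**Figure D1:**
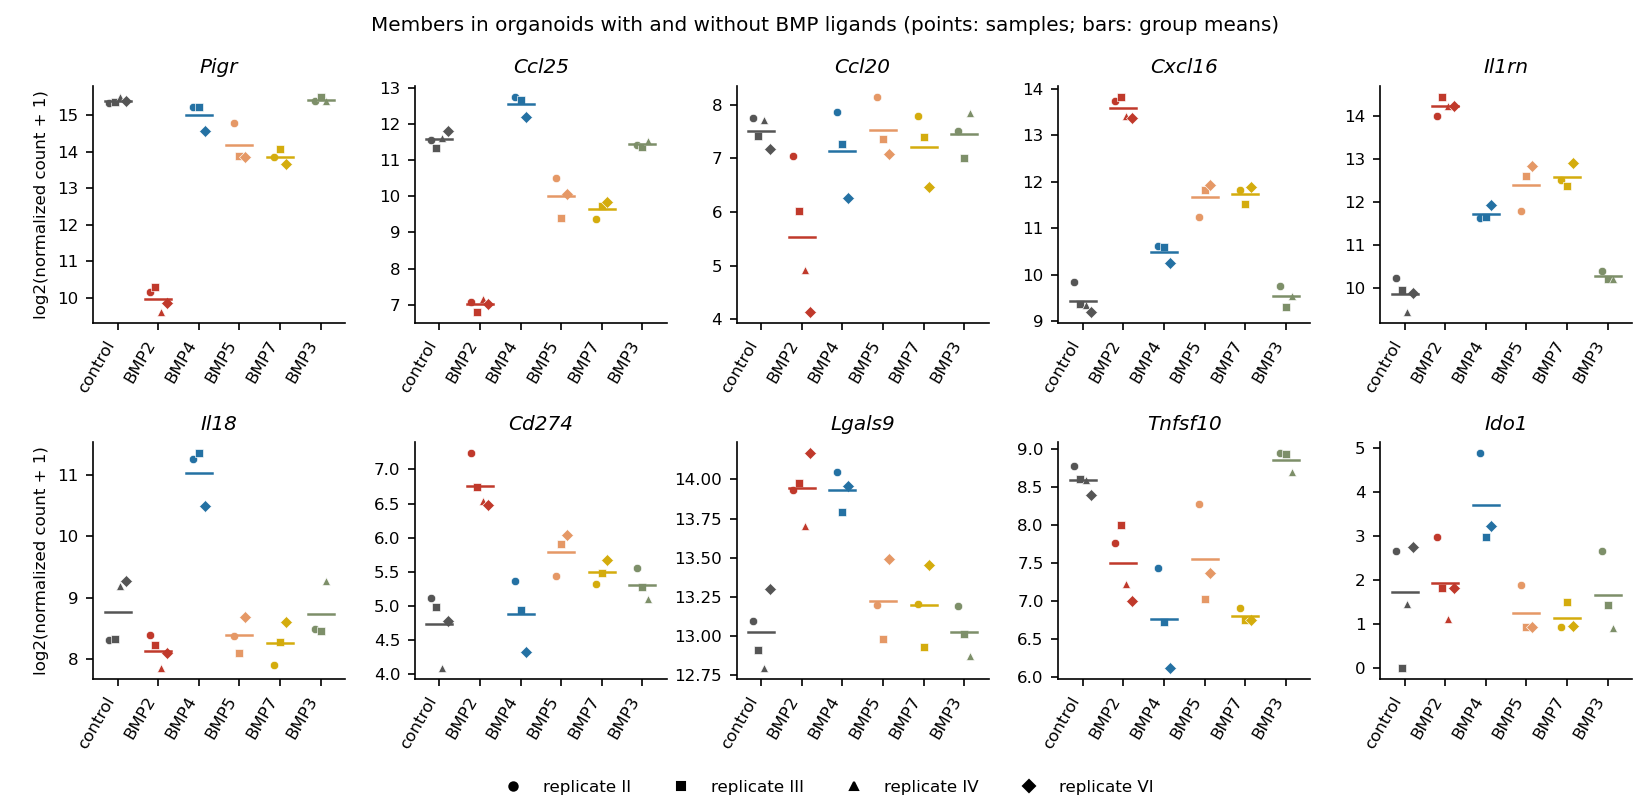
Level of each of the 10 members in the 20 organoid samples of the BMP experiment. The y axis is log2(normalized count + 1) on a separate scale for each gene, the x axis gives the group, symbols mark the replicate number in the labels and bars are group means of the log values. BMP2 samples stand apart from the other groups for Pigr, Ccl25, Cxcl16 and Il1rn, and BMP4 samples stand apart for Il18.

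Pigr encodes the polymeric immunoglobulin receptor, which carries dimeric IgA and IgM from the tissue side to the lumen. It read 41300, 42200, 46400 and 42500 normalized counts in control samples II, III, IV and VI, and 1130, 1250, 775 and 929 in the BMP2 samples of the same numbers. Every BMP2 sample lay far below every other sample of the experiment. The control mean, 43100 ± 2258 (SD, n = 4), was 42.2 times the BMP2 mean, 1021 ± 211 (SD, n = 4), a log2 difference of -5.42 (SE 0.20, adjusted p = 1.93e-13, limma).
BMP5 samples II, III and VI held 28400, 15000 and 14700 normalized counts of Pigr, and the BMP7 samples of those numbers held 14800, 17200 and 12900. Both groups lay wholly below the controls and wholly above BMP2. Their log2 differences from control were -1.22 (SE 0.21, adjusted p = 0.000279) for BMP5 and -1.53 (SE 0.21, adjusted p = 2.06e-05) for BMP7.
With BMP4, Pigr read 38500, 38100 and 24400 normalized counts, below the lowest control in all 3 samples, yet the log2 difference of -0.39 (SE 0.21, adjusted p = 0.118) missed the threshold. That call depends on the scaling: with every sample brought to the same total, the difference was -0.79 (adjusted p = 0.00466), and with quantile normalization it was -1.09 (adjusted p = 9.83e-05).
Tgfb left 70.1, 52.1 and 51.5 TPM of Pigr against 735, 708 and 705 TPM in its controls. The groups did not overlap, and the log2 difference was -3.62 (SE 0.13, adjusted p = 7.02e-06).

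Ccl25 is the chemokine that draws Ccr9-bearing lymphocytes to the small intestine. It was 2990, 2600, 3150 and 3570 normalized counts in controls II, III, IV and VI. In the BMP2 samples of those numbers it was 134, 110, 141 and 128. The control mean of 3078 ± 401 was 24.0 times the BMP2 mean of 128 ± 13.3 (SD, n = 4 each), a log2 difference of -4.57 (SE 0.18, adjusted p = 3.71e-13).
BMP5 samples II, III and VI held 1460, 679 and 1070 normalized counts of Ccl25, and the BMP7 samples held 665, 854 and 915. All 6 lay below the lowest control, with log2 differences of -1.58 (SE 0.20, adjusted p = 1.03e-05) and -1.93 (SE 0.20, adjusted p = 8.48e-07).
BMP4 went the other way. Its samples II, III and VI held 6890, 6480 and 4720 normalized counts of Ccl25, each above the highest control, and the log2 difference was 0.96 (SE 0.20, adjusted p = 0.00029).
With Tgfb, Ccl25 was 39.0, 43.8 and 43.8 TPM against 295, 325 and 331 TPM in controls, a log2 difference of -2.88 (SE 0.08, adjusted p = 3.65e-06). Ccl25 thus fell with BMP2, BMP5, BMP7 and Tgfb and rose with BMP4.

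Ccl20 is the ligand of Ccr6 and marks the epithelium over lymphoid follicles, and its printed promoter stretch holds an NF-kB motif. It was 216, 169, 208 and 144 normalized counts in controls II, III, IV and VI, and 131, 63.9, 29.4 and 16.5 in the BMP2 samples. The BMP2 samples were widely spread, but all 4 lay below the lowest control. The log2 difference was -1.98 (SE 0.49, adjusted p = 0.0012).
No difference from control was called for Ccl20 under the other ligands. The log2 difference and its 95% interval were -0.38 (-1.49 to 0.72) for BMP4, 0.01 (-1.09 to 1.12) for BMP5, -0.30 (-1.40 to 0.81) for BMP7 and -0.07 (-0.52 to 0.38) for Tgfb. The 3 BMP intervals each reach below -1, so a fall of that size is not excluded.

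Cxcl16, a chemokine made as a membrane protein and shed by Adam10, is the ligand of Cxcr6 on T cells and innate lymphoid cells. It was 922, 666, 649 and 585 normalized counts in controls II, III, IV and VI. It was 13700, 14600, 11000 and 10700 in the BMP2 samples. The BMP2 mean of 12500 ± 1944 was 17.7 times the control mean of 706 ± 148 (SD, n = 4 each), a log2 difference of 4.15 (SE 0.17, adjusted p = 4.05e-13).
BMP5 samples II, III and VI held 2410, 3640 and 3900 normalized counts of Cxcl16, the BMP7 samples 3640, 2940 and 3810, and the BMP4 samples 1570, 1560 and 1220. None of these overlapped the controls, and the BMP4 samples lay below every BMP5 and BMP7 sample. The log2 differences from control were 2.22 (SE 0.18, adjusted p = 1.55e-07) for BMP5, 2.31 (SE 0.18, adjusted p = 6.00e-08) for BMP7 and 1.05 (SE 0.18, adjusted p = 5.36e-05) for BMP4.
With Tgfb, Cxcl16 was 114, 110 and 120 TPM against 3.97, 5.47 and 5.87 TPM, a log2 difference of 4.25 (SE 0.13, adjusted p = 4.62e-06).
Its protease Adam10 rose beside it in each of these comparisons, on the log2 scale by 1.37 for BMP2 (adjusted p = 1.31e-10), 0.84 for Tgfb (0.000336), 0.57 for BMP4 (6.05e-05), 0.56 for BMP7 (0.000251) and 0.50 for BMP5 (0.00097). For the related protease Adam17 no difference was called in any of the 5, with log2 differences from -0.02 to 0.12.

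Il1rn encodes the interleukin-1 receptor antagonist, which occupies the receptor for interleukin-1 without activating it. Control samples II, III, IV and VI held 1190, 980, 689 and 938 normalized counts, and the BMP2 samples 16300, 22300, 19300 and 19100. The BMP2 mean of 19250 ± 2452 was 20.3 times the control mean of 949 ± 206 (SD, n = 4 each), a log2 difference of 4.36 (SE 0.19, adjusted p = 9.37e-13).
BMP5 samples II, III and VI held 3510, 6190 and 7280, the BMP7 samples 5780, 5270 and 7670, and the BMP4 samples 3150, 3180 and 3890 normalized counts of Il1rn. Each of the 3 groups lay wholly between the controls and BMP2. The log2 differences from control were 2.54 (SE 0.21, adjusted p = 1.55e-07), 2.72 (SE 0.21, adjusted p = 4.63e-08) and 1.86 (SE 0.21, adjusted p = 3.48e-07).
Under Tgfb, Il1rn stood at 248, 247 and 276 TPM against 9.20, 8.18 and 7.42 TPM, and its log2 difference of 4.80 (SE 0.09, adjusted p = 1.71e-06) exceeded those of the other 7 tested members.
The agonist Il1a rose with BMP2 from 8.48 to 91.6 normalized counts on average, a log2 difference of 3.25 (adjusted p = 1.36e-06), and with BMP5 and BMP7 by 2.11 and 1.98 (adjusted p = 0.00222 and 0.00281). Il1b did not exceed 1.14 normalized counts in any sample, and the receptor Il1r1 averaged 4.99 ± 4.98 normalized counts (SD, n = 4) in control samples. Both were below the filter.

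Il18 is an interleukin-1 family cytokine that epithelial cells hold as a precursor and that caspase-1 matures. The controls split, with 316 and 319 normalized counts in II and III and 584 and 618 in IV and VI. BMP4 samples II, III and VI held 2460, 2630 and 1440, all above the highest control. The log2 difference was 2.27 (SE 0.28, adjusted p = 1.07e-06). It held under all 16 alternatives tried for that result.
BMP2 samples II, III, IV and VI held 335, 298, 229 and 272 normalized counts of Il18. Samples II and III lay close to the controls of their number, and samples IV and VI lay far below theirs. The log2 difference of -0.64 (SE 0.26, adjusted p = 0.0334) was lost without BMP2 replicate IV (adjusted p = 0.0938) or VI (0.0597), without control replicate IV (0.111) or VI (0.124), and with quantile normalization (0.241).
No difference was called for BMP5 (log2 -0.39, 95% interval -0.97 to 0.20) or BMP7 (-0.51, -1.10 to 0.07). With Tgfb, Il18 fell from 45.1, 33.7 and 49.5 TPM to 27.0, 26.7 and 27.7 TPM, a log2 difference of -0.62 (SE 0.14, adjusted p = 0.00997).
Casp1, which encodes caspase-1, rose with BMP4 by 0.74 (adjusted p = 0.000319) and fell by 1.40 on the log2 scale under BMP2 (adjusted p = 3.60e-08). It also fell by 0.62 under BMP7 (adjusted p = 0.00435) and fell by 0.64 under Tgfb (adjusted p = 0.00164). Il18bp, the soluble inhibitor of interleukin-18, had log2 differences between -0.22 and 0.44 under these 4 BMP ligands and passed the threshold with none of them.

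Cd274 encodes PD-L1, the ligand of the T cell checkpoint receptor PD-1, and its promoter stretch is shown above with an interferon motif. It was low, with 33.7, 30.7, 16.0 and 26.4 normalized counts in controls II, III, IV and VI. The BMP2 samples held 150, 106, 91.8 and 88.6, all above every other sample of the experiment. The BMP2 mean of 109 ± 28.3 was 4.09 times the control mean of 26.7 ± 7.74 (SD, n = 4 each), a log2 difference of 2.01 (SE 0.26, adjusted p = 1.13e-06).
BMP5 samples II, III and VI held 42.2, 59.3 and 64.8 normalized counts of Cd274, above all controls, with a log2 difference of 1.05 (SE 0.28, adjusted p = 0.0093) that was lost without BMP5 replicate VI (adjusted p = 0.0562). BMP7 samples held 39.0, 43.7 and 50.0, also above all controls. Their log2 difference of 0.75 (SE 0.28) passed only just (adjusted p = 0.0486) and was lost in 11 of 16 alternatives. Among these were the fits with the replicate number as a block (0.63, adjusted p = 0.0541), without any 1 of the BMP7 samples (adjusted p = 0.073 without II, 0.0891 without III and 0.156 without VI) and without control III (0.0515), IV (0.15) or VI (0.0771). BMP4 samples held 40.3, 29.7 and 19.1 and overlapped the controls, with a log2 difference of 0.14 (95% interval -0.45 to 0.73).
In the Tgfb experiment Cd274 was below the filter. It stood at 0.961, 0.761 and 0.639 TPM with Tgfb and at 0.251, 0.349 and 0.344 TPM without. The groups did not overlap, and the two-sided exact permutation test gave p = 0.1, the smallest that 3 samples against 3 allow.
Cmtm6, which stabilises PD-L1 at the cell surface, rose by 0.40 with BMP4 (adjusted p = 0.00245) and fell by 0.24 with BMP2 (adjusted p = 0.0304) on the log2 scale. Pdcd1lg2, which encodes the other PD-1 ligand PD-L2, averaged 0.652 normalized counts in controls and 1.47 with BMP2 and was below the filter.

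Lgals9 encodes galectin-9, a glycan-binding protein with effects on T cells, and it is the other member with an interferon motif before its start. It was 8750, 7710, 7100 and 10100 normalized counts in controls II, III, IV and VI. It was 15600, 16100, 13300 and 18400 in the BMP2 samples and 16900, 14200 and 15900 in BMP4 samples II, III and VI. Both groups lay above the highest control and overlapped each other. The log2 differences were 0.92 (SE 0.14, adjusted p = 9.18e-06) for BMP2 and 0.91 (SE 0.15, adjusted p = 3.81e-05) for BMP4, and with quantile normalization they shrank to 0.27 and 0.29 but stayed past the threshold (adjusted p = 0.0399 and 0.0423).
BMP5 (9380, 8080 and 11500 normalized counts) and BMP7 (9460, 7810 and 11200) overlapped the controls. Their log2 differences from control, with 95% intervals, were 0.20 (-0.12 to 0.51) and 0.17 (-0.15 to 0.49). With Tgfb, Lgals9 stood at 342, 378 and 431 TPM against 347, 355 and 408 TPM, a log2 difference of 0.05 (-0.22 to 0.32).

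Tnfsf10 encodes TRAIL, which triggers death receptors on target cells. It fell with BMP2, BMP4, BMP5, BMP7 and Tgfb. Controls II, III, IV and VI held 438, 391, 386 and 335 normalized counts. BMP2 samples of those numbers held 216, 256, 148 and 127, BMP4 samples II, III and VI held 173, 105 and 68.2, BMP5 samples held 309, 129 and 164, and BMP7 samples held 119, 107 and 107. Every one of these 13 samples lay below the lowest control.
The log2 differences were -1.10 (SE 0.27, adjusted p = 0.00135) for BMP2, -1.83 (SE 0.30, adjusted p = 2.46e-05) for BMP4, -1.04 (SE 0.30, adjusted p = 0.0138) for BMP5 and -1.79 (SE 0.30, adjusted p = 0.000136) for BMP7. The BMP5 call was lost without BMP5 replicate III (adjusted p = 0.107) or VI (adjusted p = 0.0655).
With Tgfb, Tnfsf10 was 0.663, 0.725 and 1.14 TPM against 6.84, 8.03 and 8.14 TPM, a log2 difference of -2.24 (SE 0.15, adjusted p = 5.20e-05). The pseudocount of 1 shrinks this value: the control mean was 9.11 times the Tgfb mean, and a pseudocount of 0.1 gave -3.07 (adjusted p = 6.52e-05). Tnfrsf10b, the mouse TRAIL death receptor, rose on the log2 scale by 1.32 for BMP2 (adjusted p = 0.000118) and by 1.11 for Tgfb (adjusted p = 0.000569). Its values of -0.04 with BMP4, 0.61 with BMP5 and 0.56 with BMP7 did not pass.

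Ido1 encodes indoleamine 2,3-dioxygenase, which starts the breakdown of tryptophan to kynurenine. It was barely detected, with 6, 0, 2 and 7 recovered reads in controls II, III, IV and VI, or 5.33, 0, 1.77 and 5.78 normalized counts. For the sample without a read, a count of 0 allows up to 3 reads, which is 2.49 normalized counts and covers counting error only.
BMP4 samples II, III and VI held 28.4, 6.84 and 8.38 normalized counts, from 24, 6 and 7 reads. In normalized counts these samples lay above every control. The two-sided exact permutation test gave p = 0.0571, the smallest that 3 samples against 4 allow. In reads, BMP4 samples III and VI held 6 and 7, the same as controls II and VI. Their separation from those controls rests on the size factors alone, so the test cannot decide whether Ido1 differed. The other groups ran from 1.18 to 6.81 (BMP2), 0.875 to 5.34 (BMP3), 0.912 to 2.69 (BMP5) and 0.907 to 1.82 (BMP7), and their exact p lay between 0.457 and 1. In the Tgfb experiment no sample exceeded 0.258 TPM. The downstream enzymes Kynu and Kmo were as scarce, with means of 2.32 and 5.45 normalized counts in controls.

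**Figure D2:**
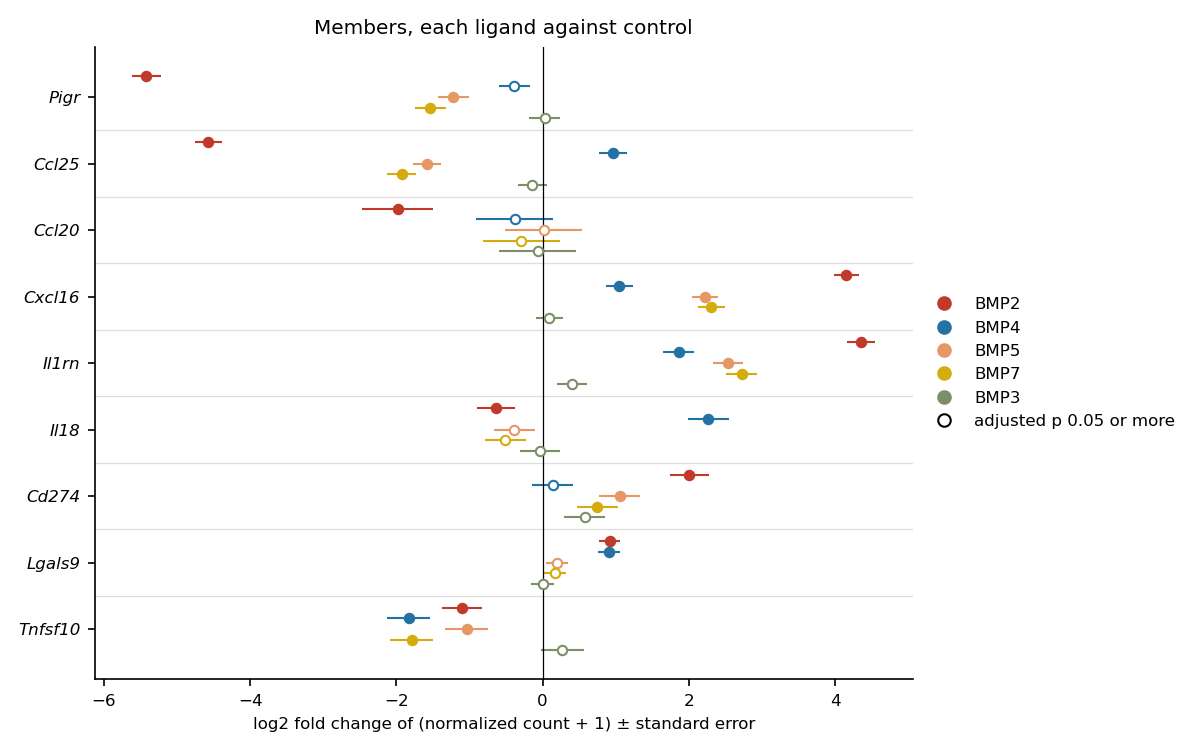
Log2 difference of each tested member from control organoids for the 5 BMP ligands, as points with standard errors on log2(normalized count + 1), where filled points passed an adjusted p of 0.05 in limma. BMP2 gives the outermost points for Pigr, Ccl25, Ccl20, Cxcl16, Il1rn and Cd274, BMP4 alone lies to the right of 0 for Ccl25 and Il18 among filled points, and BMP3 has open points only.

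No tested member was called with BMP3, and no gene of the 14746 was called higher or lower (0% in each direction). Over all genes limma gave 110 unadjusted p under 0.05, fewer than the share of 0.05 that evenly spread p-values would give. With the replicate block it gave 261, also without a call. Same-numbered control and BMP3 samples deviated together, which the reported fit leaves out. That fit is therefore cautious here, and a lack of calls does not show a lack of differences. Among the recovered reads edgeR called 0 genes and DESeq2 called 1. The members' log2 differences ran from -0.14 for Ccl25 to 0.57 for Cd274, whose 3 samples at 46.2, 38.0 and 33.3 normalized counts overlapped the controls. Pigr held 42900, 46300 and 42700 and Tnfsf10 held 494, 488 and 417 normalized counts in BMP3 samples II, III and IV, both overlapping the controls. The 95% interval was -0.41 to 0.47 for Pigr and -0.35 to 0.89 for Tnfsf10.

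**Figure D3:**
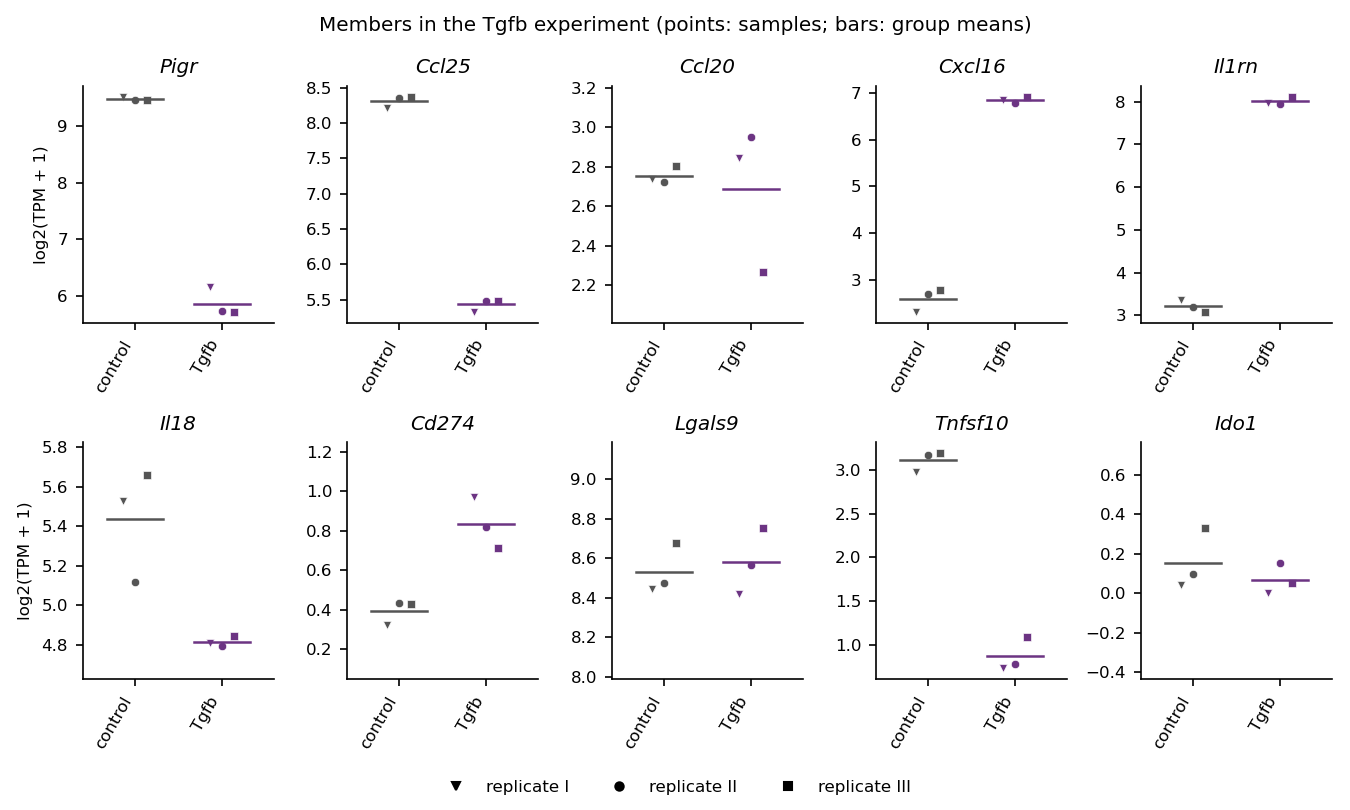
Level of each member in the 6 organoid samples of the Tgfb experiment, as log2(TPM + 1) on a separate scale for each gene, with bars at the group means of the log values and symbols for the replicate number. Tgfb and control samples do not overlap for Pigr, Ccl25, Cxcl16, Il1rn, Il18, Cd274 and Tnfsf10, and they overlap for Ccl20, Lgals9 and Ido1.

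Setting BMP2 directly against BMP4, 4 members were higher and 4 lower of 9, where 33.4% of all genes were higher and 33.4% lower. Ccl25 differed by -5.53 on the log2 scale (SE 0.20, adjusted p = 1.50e-13), with a BMP4 mean 47.0 times the BMP2 mean, and by -4.94 with quantile normalization. Pigr differed by -5.03 (SE 0.21, adjusted p = 8.57e-13) and Il18 by -2.90 (SE 0.28, adjusted p = 3.48e-08), both lower with BMP2 in every sample. Cxcl16, Il1rn and Cd274 were higher with BMP2, by 3.10 (SE 0.18, adjusted p = 4.50e-11), 2.50 (SE 0.21, adjusted p = 5.54e-09) and 1.87 (SE 0.28, adjusted p = 1.01e-05).
The remaining calls were less firm. Ccl20 differed by -1.60 (adjusted p = 0.012), which was lost in 2 of 16 alternatives, without BMP4 replicate II (adjusted p = 0.0764) and in a fit on only the groups compared (0.0545). Tnfsf10 was higher by 0.74 (adjusted p = 0.0353), with overlapping samples, and its call was lost in 7 of 16 alternatives, among them without BMP4 replicate VI (adjusted p = 0.243) or III (0.0793) and without BMP2 replicate II (0.0842) or III (0.115). For Lgals9 the ligands differed by 0.01, with a 95% interval from -0.31 to 0.33, on the log2 scale.

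BMP2 against BMP7 gave 5 members higher and 3 lower of 9, where 31.4% of all genes were higher and 31.4% lower. Pigr differed by -3.89 (SE 0.21, adjusted p = 1.13e-10), Ccl25 by -2.64 (SE 0.20, adjusted p = 2.75e-09), Cxcl16 by 1.85 (SE 0.18, adjusted p = 8.32e-08), Il1rn by 1.64 (SE 0.21, adjusted p = 2.12e-06) and Cd274 by 1.26 (SE 0.28, adjusted p = 0.000757). The samples of the 2 ligands did not overlap for any of these 5 genes.
Lgals9 was higher with BMP2 by 0.75 (adjusted p = 0.000321), a call lost with quantile normalization (0.21, adjusted p = 0.137). Ccl20 differed by -1.69 (adjusted p = 0.00937), lost without BMP7 replicate II (adjusted p = 0.0524). Tnfsf10 was higher by 0.69 at an adjusted p of 0.0494 and lost its call in 9 of 16 alternatives, among them without BMP2 replicate II (0.111) or III (0.148), without BMP7 replicate II (0.0737), III (0.109) or VI (0.105), and under scaling to one common library total (0.30, adjusted p = 0.402). Il18 differed by -0.12 (95% interval -0.71 to 0.46).

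No tested member was called between BMP5 and BMP7, where 0.00678% of all genes were called in each direction, which is 1 gene each way. The 95% intervals of their log2 difference were -0.16 to 0.78 for Pigr, -0.10 to 0.78 for Ccl25, -0.49 to 0.32 for Cxcl16 and -0.66 to 0.28 for Il1rn. Tnfsf10 came nearest, at 0.75 (95% interval 0.09 to 1.41, adjusted p = 1), and BMP5 sample II, at 309 normalized counts, stood farthest above the BMP7 samples.

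**Figure D4:**
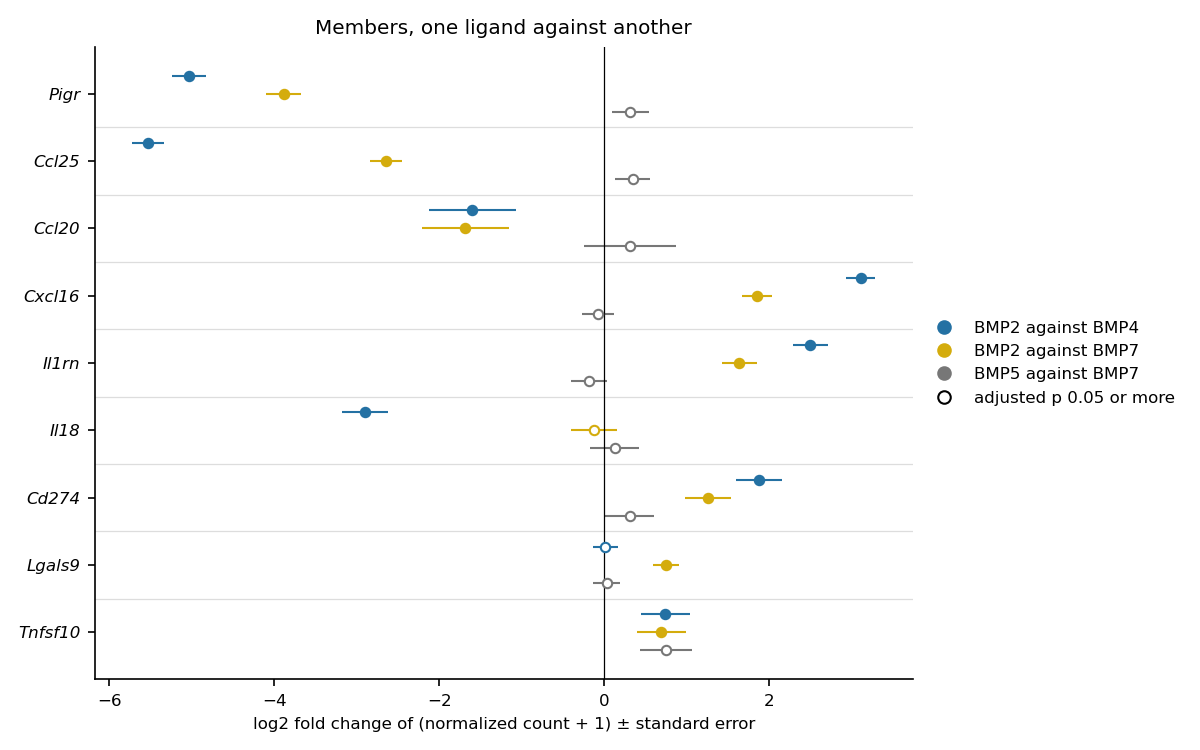
Log2 difference of each tested member between pairs of ligands, as points with standard errors on log2(normalized count + 1), where filled points passed an adjusted p of 0.05 in limma. Points left of 0 are lower with the first ligand named. Pigr and Ccl25 lie farthest left and Cxcl16 farthest right for BMP2 against BMP4 and against BMP7, and all points of BMP5 against BMP7 are open.

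Ordering the 6 groups of the BMP experiment by mean level, BMP2 was at an end for 8 members: highest for Cd274, Il1rn, Cxcl16 and Lgals9 and lowest for Il18, Pigr, Ccl20 and Ccl25. Its samples were clear of the next group for Cd274, Il1rn, Cxcl16, Pigr and Ccl25. BMP4 was highest for Il18, Ccl25 and Ido1, clear of the next group for Il18 and Ccl25. For Ido1 the lowest BMP4 sample (6.84 normalized counts) and the highest BMP2 sample (6.81) both came from 6 reads. BMP3 and control were neighbours in this order for 9 of the 10 members, Cd274 being the exception, and their ranges overlapped for all 10.

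The 3 genes with the most similar profile over the 20 samples were sought for each member called in at least 3 of the 4 comparisons of BMP2, BMP4, BMP5 and BMP7 with control, among 11856 genes with a mean of at least 50 normalized counts. They are given as Pearson's r of the log2 values, which the group differences dominate. Nearest to Pigr were Hdac11 (0.997), Lclat1 (0.991) and Ndufaf4 (0.991). Nearest to Ccl25 were Gstm7 (0.994), Akap7 (0.990) and Erlin1 (0.988). Nearest to Il1rn were Lrrfip1 (0.994), Antxr2 (0.992) and Serpinb5 (0.992), and nearest to Cxcl16 were Litaf (0.994), Ier3 (0.994) and Samd4 (0.992). Tnfsf10 (Sesn3, 0.943) and Cd274 (Nupr1, 0.936) had no gene as close.

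Around the members, other genes of the same immune pathways were read as lists, described by their counts of calls. The shares of all genes called, 36.8% higher and 38.4% lower with BMP2 and 33.7% and 31.4% with BMP4, are the background of the counts that follow. For BMP5 they were 16.5% and 9.87%, for BMP7 19.2% and 13.2%, and for Tgfb 27.4% and 29.3%. The BMP4 count of other chemokines that rose and the BMP2 count of checkpoint ligands that rose lie near those shares. Of 21 tested interferon signalling genes, 20 rose and 1 fell with BMP2, with a median log2 difference of 1.38, and 17 rose and 1 fell with BMP4, with a median of 1.10. Irf1, a transcription factor of that pathway, rose by 1.38 with BMP2 and 0.64 with BMP4 (adjusted p = 3.98e-07 and 0.00421). The gene that fell with BMP2 was Irf8, with a difference of -3.42 (adjusted p = 2.82e-12). BMP5 gave 13 higher and 1 lower, BMP7 12 and 1, and Tgfb 13 and 1 of 18.
Of 21 NF-kB signalling genes, 19 rose and 1 fell with BMP2, 14 rose and 0 fell with BMP5, 14 and 1 with BMP7, and 15 and 0 with Tgfb. Relb, an NF-kB subunit, rose by 1.93 with BMP2 (adjusted p = 7.33e-13). With BMP4 the split was 11 higher and 5 lower, and with every sample at the same total it turned to 5 higher and 8 lower. The same scaling left 16 higher and 1 lower interferon genes with BMP2 and 10 and 2 with BMP4. It shifted the median of all genes from -0.03 to -0.48 with BMP2 and from 0.04 to -0.35 with BMP4. Of all 14746 genes, it left 3627 higher and 7783 lower with BMP2 and 3100 and 6864 with BMP4. These are the background of list counts given at that scaling, here and below.

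Other chemokines and shedding proteases moved both ways. With BMP2, 8 of 12 tested rose and 3 fell. Cxcl2, which draws neutrophils, rose by 5.19 on the log2 scale (adjusted p = 1.75e-08), while Ccl28, a mucosal chemokine for antibody-secreting cells, fell by 6.02 (adjusted p = 9.80e-12) and Ccl9 fell by 5.24 (adjusted p = 3.75e-11). With BMP4, 4 rose and 2 fell, and Ccl28 fell by 1.11 (adjusted p = 0.0106). With Tgfb, 4 of 8 rose and 3 fell, with Cxcl1 at 2.37 (adjusted p = 7.27e-05) and Ccl28 at -1.88 (adjusted p = 1.33e-05).
In the interleukin-1 family and inflammasome list, 9 of 16 rose and 5 fell with BMP2. Nlrp6, an epithelial inflammasome sensor, fell by 6.03 (adjusted p = 1.01e-12) and the adaptor Pycard fell by 4.03 (adjusted p = 3.36e-09), while the interleukin-18 receptor chains Il18rap and Il18r1 rose by 4.38 (adjusted p = 2.80e-10) and 3.77 (adjusted p = 1.39e-09). With BMP4, 7 rose and 2 fell, and Il33 was among those that rose, by 2.38 (adjusted p = 3.74e-06). With every sample at the same total the list gave 6 higher and 6 lower for BMP2 and 4 and 4 for BMP4.

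**Figure D5:**
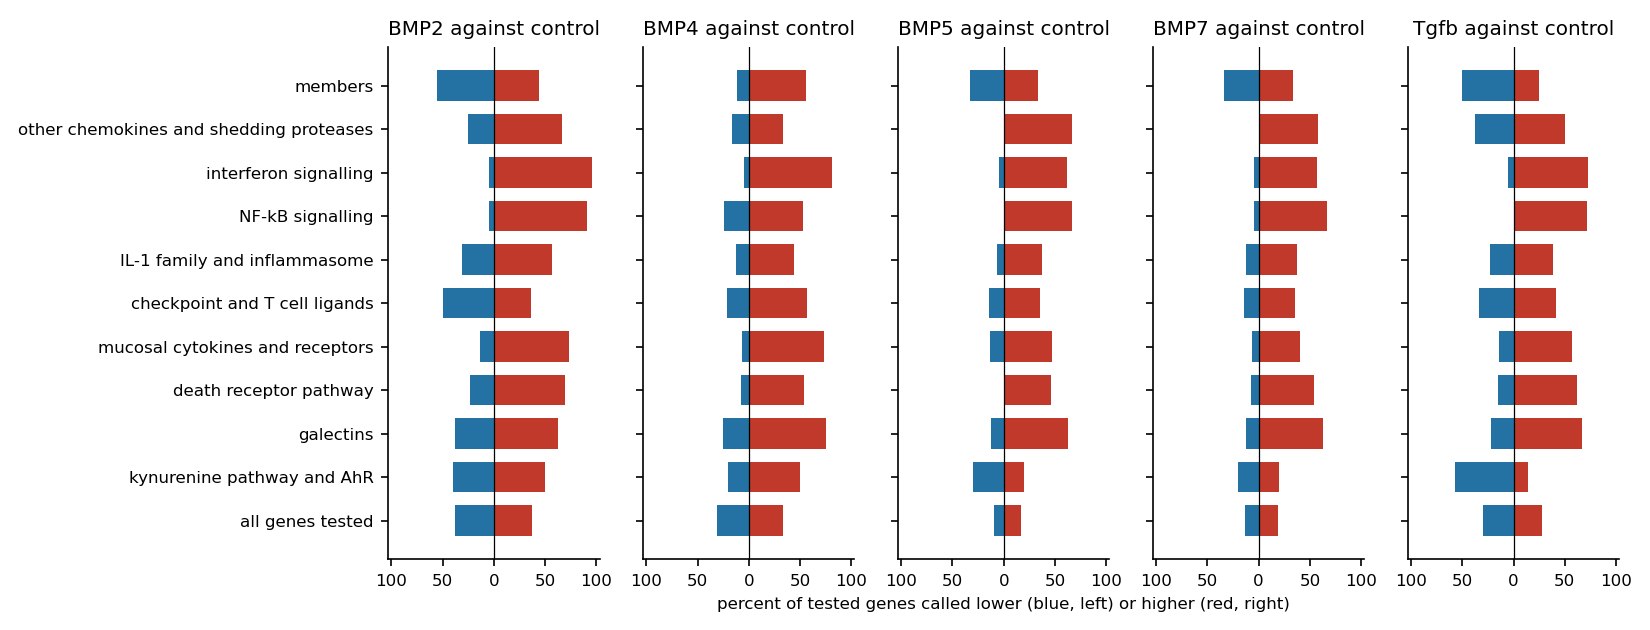
Percent of the tested genes of each list that were called higher (red, right) or lower (blue, left) than control in limma, for BMP2, BMP4, BMP5, BMP7 and Tgfb, with all genes tested in the bottom row. The interferon and NF-kB lists lean to the right in the 5 comparisons, while the members have calls on both sides of 0 in all 5. With every sample at the same total, not drawn here, NF-kB with BMP4 gave 5 higher and 8 lower. All 14746 genes then gave 3100 higher and 6864 lower with BMP4.

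Among checkpoint and T cell ligands, BMP2 gave 5 higher and 7 lower of 14 and BMP4 8 higher and 3 lower, and with every sample at the same total BMP2 gave 4 and 9 and BMP4 6 and 5. The butyrophilin-like genes Btnl4 and Btnl6, whose products act on intraepithelial gamma-delta T cells, rose with BMP4 by 1.88 (adjusted p = 1.90e-07) and 3.05 (adjusted p = 2.21e-07). Btnl1 fell by 2.38 with BMP2 (adjusted p = 2.18e-06), and Pvr and Nectin2, ligands of lymphocyte receptors, rose by 3.01 and 2.14 (adjusted p = 7.01e-13 and 4.74e-13). The galectin list, beside Lgals9, held 8 tested genes, 1 of them for a galectin-binding protein. Of these, 5 rose and 3 fell with BMP2 and 6 rose and 2 fell with BMP4. The BMP2 count that fell lies near the 38.4% of all genes. Lgals3 rose by 5.43 with BMP2 (adjusted p = 1.07e-12), 4.09 with BMP4 (adjusted p = 4.88e-10) and 5.43 with Tgfb (adjusted p = 2.88e-05), while Lgals12 had log2 differences of -4.00, -3.72 and -0.81 in the same order (adjusted p = 2.76e-13, 5.16e-12 and 0.000287). In the death receptor list, 9 of 13 rose and 3 fell with BMP2, and 7 rose and 1 fell with BMP4. Fas rose with BMP4 by 2.68 (adjusted p = 1.32e-09) and fell by 0.94 with BMP2 (adjusted p = 9.30e-05), and Cflar, an inhibitor of caspase-8, rose with BMP2 by 2.23 (adjusted p = 5.40e-12).

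The makeup of the organoids moved with these results, and fewer cells of a type cannot be told apart from less RNA per cell in bulk samples. The 5 stem cell markers summed to 99818 to 124495 normalized counts in controls, 1165 to 2048 with BMP2, 3689 to 6505 with BMP4, 27409 to 77174 with BMP5 and 24229 to 28513 with BMP7. The 8 enterocyte markers summed to 52504 to 98192 in controls, 32450 to 80652 with BMP2 and 365910 to 445940 with BMP4, and 7 of the 8 rose with BMP4. The 6 goblet cell markers summed to 25010 to 40910 in controls and 78182 to 134590 with BMP4, and the 6 tuft cell markers to 363 to 430 in controls and 1483 to 2333 with BMP2. In the Tgfb experiment the stem cell markers summed to 2504 to 2956 TPM without and 165 to 172 TPM with Tgfb, and the follicle-associated and M cell markers to 177 to 186 TPM without and 4156 to 4747 TPM with it. Most of that Tgfb sum was Clu, at 3855 TPM against 21.5 TPM in controls. Marcksl1 (44.2 to 331 TPM), Anxa5 (10.8 to 239 TPM) and Spib (0.826 to 1.85 TPM) also had higher means. Ccl9 (89.8 to 37.9 TPM), Tnfrsf11a (13.2 to 10.5 TPM) and Tnfaip2 (0.799 to 0.290 TPM) had lower means, and Gp2 and Sox8 were at 0. Ccl25 and Il18 were high in the same BMP4 samples as the enterocyte and goblet cell markers. With BMP2, Ccl25 was low while the enterocyte sums overlapped those of controls. The 9 markers of follicle-associated epithelium and M cells summed to 7214 to 9007 normalized counts in controls, 149344 to 176981 with BMP2, 37996 to 72659 with BMP5 and 52891 to 70462 with BMP7. The BMP2 sum was almost all Clu, Anxa5 and Marcksl1, and Clu alone averaged 48300 normalized counts with BMP5 and 50167 with BMP7. Of the 7 tested markers of that list, 4 rose and 2 fell with BMP2, the 2 being Ccl9 at -5.24 and Tnfrsf11a at -0.85 on the log2 scale (adjusted p = 3.75e-11 and 1.83e-07), and Tnfaip2 stood at -0.01 (adjusted p = 0.989). These markers were singled out after their values were seen. The leukocyte markers summed to 120 to 238 normalized counts with BMP2 and 158 to 273 with BMP4, where Itgam at 150 ± 31.0 (SD, n = 3) made up most of the sum and Ptprc stood at 12.1 ± 8.88. The part of cell makeup in the members' differences was not tested.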

How the data were processed

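RNA-seq libraries of organoids were read in 2 processed tables, and 2 samples of mesenchymal cells were not analysed here. The BMP table holds a signal per gene, deposited by the authors as gene counts divided by a size factor per sample, and the Tgfb table holds values that sum to 1000000 per sample as deposited, which are read here as TPM. Trim Galore, Salmon, DESeq2 and GRCm39 are named, without versions or roles, per the submitters' processing notes. Libraries were sequenced in more than 1 run, per the labels' protocols, and samples are not assigned to runs, so a run cannot be told apart from a group. Deposited normalized counts above 999 carry 3 digits.

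The low normalized counts were whole multiples of the value of 1 read, and 100% of 180721 values of up to 20 reads came out whole within 0.07 reads. Since the tables held no raw counts, limma 3.58.1 (R 4.3.3) was fitted to log2(value + 1) in place of edgeR, which the design named for counts. A fold on this scale understates the change of low genes. The BMP fit held all 6 groups and genes with a mean of at least 10 normalized counts, the Tgfb fit held genes with a mean of at least 1 TPM, and p-values were two-sided and Benjamini-Hochberg adjusted over all genes at a threshold of 0.05. 1 searched promoter motif is not reported here. Exact permutation tests served members under the filter. Alternatives were another pseudocount, filter and scaling, the replicate number as a block, a fit on only the groups compared, edgeR 4.0.16 and DESeq2 1.42.0 on recovered reads, and leaving out each sample. The edgeR and DESeq2 fits on recovered reads cover the BMP table only. The fitting code was tested on simulated data.

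Replicates of a group differed by more than counting noise (chi-square per degree of freedom 5.98 to 22.6). Same-numbered samples deviated together, with every correlation over 0.1, for control with BMP3 (0.281 to 0.553), BMP4 (0.19 to 0.225), BMP5 (0.158 to 0.262) and BMP7 (0.236 to 0.294) and for BMP5 with BMP7 (0.15 to 0.489). Not every correlation was over 0.1 for control with BMP2 (0.0182 to 0.421), though its highest exceeded all between unlike numbers (up to 0.133). The same held for BMP2 with BMP4 (-0.04 to 0.298) and with BMP7 (-0.107 to 0.218). For control with Tgfb the range was 0.00405 to 0.0696. Reads carry no molecular identifiers, so limits from a count of 0 cover counting error only.

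The members and lists were chosen with earlier results of these data known. Named are all members, from each other list at most 2 genes per direction and comparison with the smallest adjusted p, stated partners of a member, and the 3 genes most like a member.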

Additional observations from a re-analysis of the deposited data

How the results depend on the processing

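Over 80 member results, 1246 alternative values were computed, of which 1163 kept the direction and the side of the threshold, 42 changed sign, 39 lost the call and 2 gained it. Of 49 called results, 40 kept their call and direction under every alternative run. All sign changes concern results that were not called, and the cause was not tested. Scaling to one common total gave log2 differences of -0.25 for Cd274 with BMP4, -0.026 for Ccl20 with BMP5, 0.0201 for Lgals9 with BMP3 and -0.0486 for Lgals9 in BMP2 against BMP4. Quantile normalization gave -0.02003 for Ccl20 with BMP5, -0.0247 for Lgals9 in BMP2 against BMP4 and 0.18 for Il18 in BMP2 against BMP7. With the replicate block, BMP3 gave -0.0386 for Pigr and 0.0845 for Lgals9, and the only member call that the block changed was that of Cd274 with BMP7. Leaving out 1 sample gave ranges, against control, of -0.11 to 0.41 for Cd274 with BMP4 and, for Ccl20, of -0.75 to 0.054 (BMP4), -0.58 to 0.0798 (BMP7), -0.30 to 0.24 (BMP5) and -0.20 to 0.14 (Tgfb). For BMP3 the ranges were -0.30 to 0.13 for Il18, -0.0186 to 0.23 for Cxcl16, -0.00864 to 0.0651 for Pigr, -0.26 to 0.16 for Ccl20 and -0.0836 to 0.0908 for Lgals9. In BMP5 against BMP7 they were -0.40 to 0.12 for Il1rn, -0.0014 to 0.47 for Pigr, -0.0664 to 0.59 for Ccl20, -0.22 to 0.13 for Cxcl16, -0.052 to 0.29 for Il18 and -0.11 to 0.15 for Lgals9. The rest were -0.064 to 0.0921 for Lgals9 in BMP2 against BMP4, -0.30 to 0.0448 for Il18 in BMP2 against BMP7 and -0.0381 to 0.13 for Lgals9 with Tgfb.

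Over all genes, scaling to one common total moved the higher and lower calls from 5420 and 5657 to 3627 and 7783 for BMP2, from 4964 and 4633 to 3100 and 6864 for BMP4, from 2833 and 1940 to 2587 and 2725 for BMP7, and from 4637 and 4625 to 2527 and 6948 for BMP2 against BMP7. Quantile normalization gave 2397 and 2413 for BMP5, where the reported fit gave 2429 and 1455, and 2716 and 2938 for BMP7. For BMP5, leaving out replicate III gave 1802 and 713 and leaving out replicate VI gave 1707 and 825, and for BMP7 leaving out replicate II gave 2308 and 1209. The replicate block gave 3145 and 2593 for BMP5 and 3541 and 3148 for BMP7. BMP5 against BMP7 gave 1 and 1 as reported, 3 and 3 with the replicate block, 3 and 1 without a filter or with edgeR, 18 and 6 with DESeq2, and 4 and 5 without BMP5 replicate III. It gave 0 and 0 with the smaller pseudocount, the stricter filter, or without BMP5 replicate II or VI or BMP7 replicate II or III, 1 and 0 with the common total and 0 and 1 with quantile normalization. BMP3 gave 1 and 2 when fitted on only the groups compared, 1 and 0 with DESeq2, and 0 and 1 without BMP3 replicate II. Members with few reads, Ido1 above all, are limited by depth.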

Other observations

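Receptors for mucosal cytokines were among the genes that moved beside the members. Of 15 tested genes in the list of mucosal cytokines and receptors, 11 rose and 2 fell with BMP2, and 11 rose and 1 fell with BMP4. Of all genes, 36.8% were higher and 38.4% lower with BMP2, and 33.7% and 31.4% with BMP4. With every sample at the same total these counts were 7 and 4 for BMP2 and 9 and 3 for BMP4. At that scaling, 3627 of all 14746 genes were higher and 7783 lower with BMP2, and 3100 and 6864 with BMP4. Il4ra and Il13ra1, receptor chains for interleukin-4 and interleukin-13, differed by 2.82 and 2.56 on the log2 scale with BMP2 (limma adjusted p = 3.52e-11 and 1.67e-11). Tnfsf13, which encodes the B cell factor APRIL, differed by -3.18 (limma adjusted p = 1.46e-09).

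The list of the kynurenine pathway, which Ido1 feeds, also held its receptor Ahr, genes that respond to Ahr and amino acid transporter genes. Of its 10 tested genes, 5 rose and 4 fell with BMP2, and these counts are not of pathway enzymes alone. Ahr differed by 1.87 (limma adjusted p = 1.1e-10) and the aminotransferase gene Kyat3 by -4.06 (limma adjusted p = 7.27e-11). With BMP4, 5 rose and 2 fell. The BMP2 counts of this list lie near the shares of all genes.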
